A study of Mus musculus with 40 samples.

Results

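The genes described here are 10 neighbours of *Dlgap3* on mouse chromosome 4: *Dcdc2b*, *Zbtb8a*, *1700003M07Rik*, *Hdac1*, *Khdrbs1*, *Rbbp4*, *Txlna*, *Lck*, *Marcksl1* and *Col16a1*. They are 10 of the 24060 gene symbols counted, and each lies between 2.07 and 2.81 Mb from the end of *Dlgap3*, towards the higher positions of the chromosome. They were picked by symbol with their difference between SAPAP3 KO and WT libraries already known, so their KO over WT values below are a description and carry no test. *Dlgap3* encodes SAPAP3, a scaffold protein of excitatory synapses, and its knockout is used as a mouse model of obsessive–compulsive disorder.

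RNA was sequenced from striatum in 40 libraries, in 10 groups of 4. The SAPAP3 cohort held WT mice (strain C57/BL6J) and KO mice (C57/BL6J-Dlgap3 KO), each with an input and a RiboTag immunoprecipitate (IP) library, and bulk striatum was sequenced from another 4 WT and 4 KO mice, all labelled C57/BL6NTac. RiboTag is an HA-tagged ribosomal protein, RPL22, delivered by an AAV under the astrocyte promoter GfaABC1D or the neuronal promoter hSYN1, so that ribosomes of the transduced cells, and the RNA on them, can be pulled down, while the input is lysate RNA of all striatal cell types. The WT libraries of the strain C57/BL6NTac were a Control input and a Control IP from the same 4 mice, and a neuron-cohort input and a neuron IP (hSYN1). The labels name no AAV for the Control IP and the SAPAP3-cohort IP; the study also used mice of the SAPAP3 cohort at an older adult age than the other RiboTag mice. The labels give 1 bulk WT and 1 bulk KO library the same animal number. The KO line was kept through heterozygous mice, and its name marks a targeted allele made in 129-derived cells and carried on C57BL/6 mice, so the allele itself and any 129-derived sequence beside it cannot be told apart in the KO libraries.

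Library depth ran from 23438112 to 84109800 counted reads. The summed CPM (read counts scaled to a common library size, with TMM factors taken over all 40 libraries) of 10 astrocyte markers was 35580 to 38870 in the Control IP against 3356 to 3558 in its input, and 24750 to 35060 in the SAPAP3-cohort WT IP against 5561 to 7110 in its input. The sum of 9 neuron markers was 9094 to 9415 in the neuron IP against 5548 to 5837 in its input. Microglia markers fell to between 49.4 and 191 CPM across the IP libraries from between 507 and 1712 in input and bulk libraries. *Xist* was high in all neuron-cohort libraries, in 1 of 4 mice of each genotype in the SAPAP3 cohort and in 1 bulk WT library, and had at most 1 read in a Control library. The targeted gene was lower in the KO libraries: *Dlgap3* stood at 229, 333, 367 and 377 CPM in the bulk WT libraries and at 136, 148, 150 and 158 CPM in the bulk KO libraries, which is 45.3% of WT in the mean, with 43.7% in the input and 37.9% in the IP. Counts over the whole gene do not separate the altered part of the allele from the rest.

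As background, the 10 genes share an address and no single pathway. *Hdac1* (a class I histone deacetylase) and *Rbbp4* (a WD-repeat histone chaperone) encode subunits of the same corepressor complexes, NuRD and Sin3. *Khdrbs1* encodes SAM68, an RNA-binding protein of the STAR family that acts in splicing, and *Zbtb8a* a zinc-finger protein with a BTB domain. *Lck* encodes the Src-family kinase best known from T cell receptor signalling, *Marcksl1* a MARCKS-like actin regulator, *Txlna* a taxilin that binds syntaxins, *Col16a1* the alpha chain of type XVI collagen, a fibril-associated collagen, and *Dcdc2b* a protein with doublecortin domains, which bind microtubules. *1700003M07Rik* is annotated as a long non-coding RNA.

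On GRCm38 (mm10), the RefSeq annotation orders them as *Rbbp4* (chr4:129307100-129335370), *Zbtb8a* (chr4:129353632-129378028), *Marcksl1* (chr4:129513581-129515981), *Hdac1* (chr4:129516104-129542646), *Lck* (chr4:129548344-129573641), *Dcdc2b* (chr4:129607930-129614483), *Txlna* (chr4:129626077-129641065), *Khdrbs1* (chr4:129702380-129743878), *1700003M07Rik* (chr4:129960374-129965138) and *Col16a1* (chr4:130047817-130099277). *Marcksl1*, *1700003M07Rik* and *Col16a1* are on the plus strand and the other 7 on the minus strand, and *Dlgap3* itself lies at chr4:127168305-127237022 on the plus strand. The exons of *Rbbp4* overlap those of *Sync* on the opposite strand over 2284 bp, and those of *Dcdc2b* overlap *Tmem234* over 426 bp. Opposite-strand exons also overlap *Zbtb8a* (398 bp, *LOC108168979*), *Txlna* (200 bp, *Gm34305*) and *Col16a1* (199 bp, *Gm46871*, and 110 bp, *Gm12963*). Reads there can be assigned to either gene if strand was not used in counting, which is not stated. *Lck* overlaps *Mir8119* on its own strand over 25 bp. *Hdac1* has a processed copy of 99.8% identity, *Hdac1-ps*, and *Marcksl1* a copy of 97.0% identity, so their counts are uncertain. No such copy of the other 8 was found.

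RefSeq promoter windows of GRCm38.p6, from 250 bases before to 50 bases after a transcript start, were at hand for 7 of the 10 genes. A TATA box, searched as TATAAA on both strands, occurs in 13.6% of all 32851 windows of that length. The CCAAT box, searched likewise, occurs in 37.4% of them, and the GC box, searched as GGGCGG, in 35.7%. The windows of the gene with the largest drop in KO input, of the gene lower in the KO by nearly the same factor in all 3 preparations, and of the gene with the largest rise in the KO IP are shown 5′ to 3′ along the gene, with motif matches in capitals. They are the C57BL/6J reference sequence, not that of the KO mice.
Dcdc2b: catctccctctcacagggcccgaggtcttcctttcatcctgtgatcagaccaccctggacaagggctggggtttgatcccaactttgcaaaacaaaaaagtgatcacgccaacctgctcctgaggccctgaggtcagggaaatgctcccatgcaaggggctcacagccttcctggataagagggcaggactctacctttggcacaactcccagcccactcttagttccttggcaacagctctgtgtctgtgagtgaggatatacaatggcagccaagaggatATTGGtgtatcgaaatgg
Zbtb8a: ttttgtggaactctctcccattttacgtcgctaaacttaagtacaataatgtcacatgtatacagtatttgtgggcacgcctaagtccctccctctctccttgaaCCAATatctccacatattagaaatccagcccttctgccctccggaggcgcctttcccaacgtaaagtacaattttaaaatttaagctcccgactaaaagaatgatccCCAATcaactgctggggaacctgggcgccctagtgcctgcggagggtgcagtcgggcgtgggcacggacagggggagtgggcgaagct
Col16a1: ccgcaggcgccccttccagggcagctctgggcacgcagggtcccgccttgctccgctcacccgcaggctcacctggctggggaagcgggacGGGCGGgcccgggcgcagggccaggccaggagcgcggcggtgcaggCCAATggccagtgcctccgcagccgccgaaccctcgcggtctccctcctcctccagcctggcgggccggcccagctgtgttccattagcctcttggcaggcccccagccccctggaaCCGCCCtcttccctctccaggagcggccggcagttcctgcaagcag
The *Dcdc2b* window (chr4:129614223-129614522, minus strand) has 53.0% GC, 3 CG dinucleotides and 1 CCAAT match. The *Zbtb8a* window (chr4:129377979-129378278, minus strand) has 50.3% GC, 13 CG dinucleotides and 2 CCAAT matches. The *Col16a1* window (chr4:130047590-130047889, plus strand) is the most GC-rich of the 3, with 74.3% GC, 24 CG dinucleotides, 2 GGGCGG matches and 1 CCAAT match, against a median of 7 CG dinucleotides over all windows. No TATAAA match stands in any of the windows of the 7 genes.

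Levels between genes are compared in FPKM, which divides by exon length. In bulk WT striatum *Rbbp4* (24.6 ± 0.881 FPKM, SD, n = 4) and *Marcksl1* (21.2 ± 6.32) were highest. *Txlna* came next, and *Khdrbs1* (7.98 ± 1.001) and *Zbtb8a* (5.19 ± 1.18) followed. *1700003M07Rik* (2.07 ± 0.4103), *Hdac1* (1.77 ± 0.488), *Col16a1* (0.697 ± 0.0458), *Lck* (0.523 ± 0.1002) and *Dcdc2b* (0.309 ± 0.0602 FPKM) were low. *Hdac1* and *Marcksl1* have near-identical copies, so their places are uncertain. *Khdrbs1* has 15190 bp of merged exons, and by mean CPM it stood above *Rbbp4* (118.9 against 106.4 CPM). *Dcdc2b*, the lowest in FPKM, rests on 46 to 83 reads per bulk WT library.

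**Figure D1:**
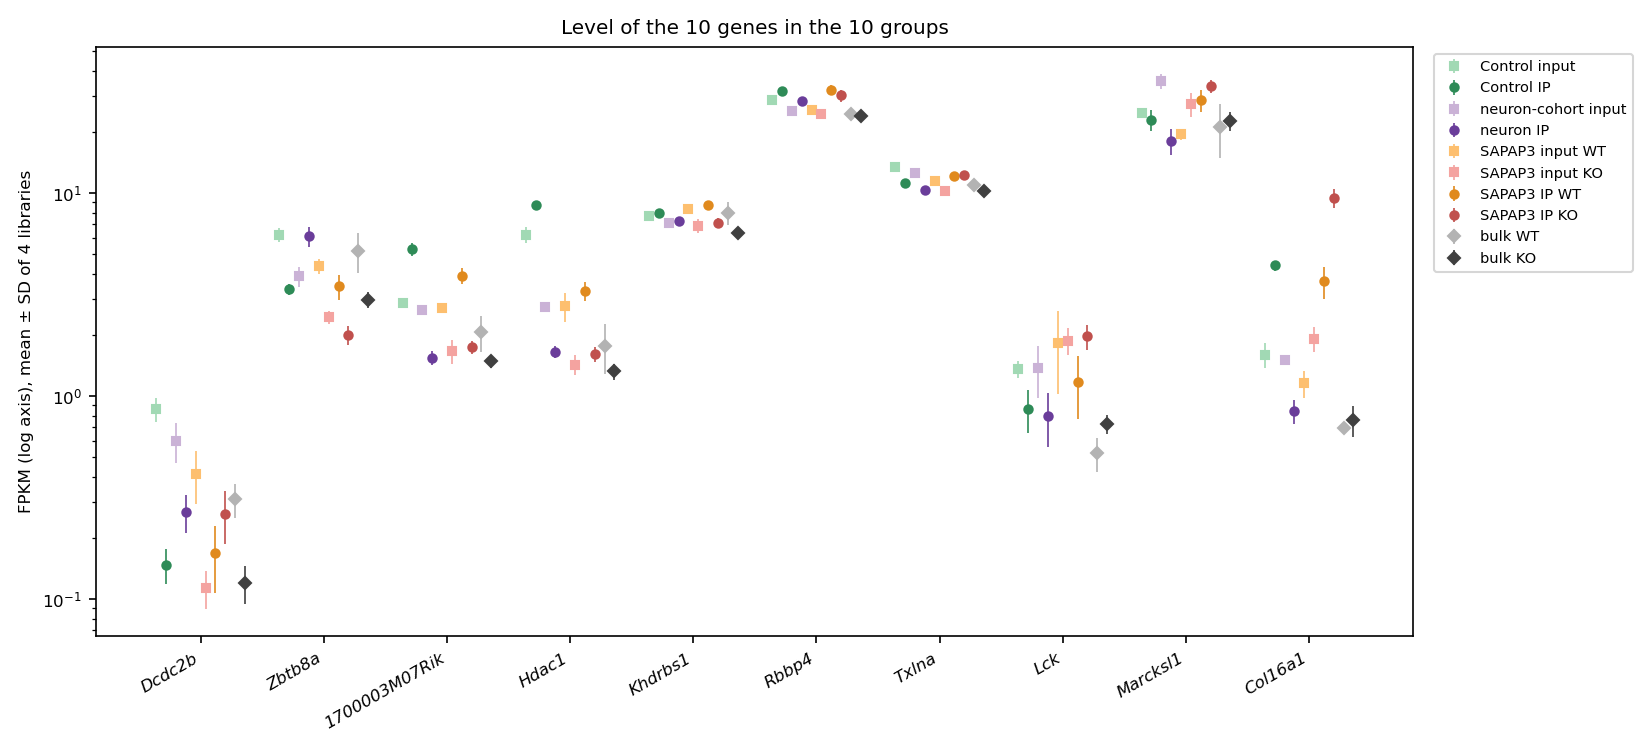
FPKM of the 10 genes (log axis) in the 10 groups, as the mean of 4 libraries with its SD. *Rbbp4*, *Txlna* and *Khdrbs1* lie in a narrow band in every group, while *Col16a1* runs from 0.697 FPKM in bulk WT to 9.44 FPKM in the KO IP.

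The question behind the KO libraries is what loss of SAPAP3 changes in striatal RNA, and the 10 genes show how the genes beside the targeted one stand in them. KO libraries lay wholly below WT libraries in bulk, input and IP for *Zbtb8a* and *1700003M07Rik*, in input and IP for *Hdac1*, in bulk and IP for *Khdrbs1*, in bulk and input for *Dcdc2b*, and in the input for *Txlna*. They lay wholly above in input and IP for *Col16a1*, in the input for *Marcksl1* and in the IP for *Lck*. *Rbbp4* and *Txlna* stayed within 10% of WT in the mean in every preparation. Each KO over WT value is a log2(FC) from edgeR with its SE, over 4 KO and 4 WT libraries. Less RNA per cell and fewer cells of a type cannot be told apart in such libraries.

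Read against all genes, the KO libraries of bulk striatum lay wholly below WT for 4 of the 10 genes (1.19% of all 16020 genes tested) and wholly above for 0 (1.85%). In the input 5 lay wholly below (1.76% of all 15591 genes) and 2 wholly above (2.24%), and in the IP 4 lay below (0.717% of all 15198 genes) and 2 above (0.875%). By the edgeR quasi-likelihood test with Benjamini–Hochberg adjustment over all genes, 0 of the 10 were called in bulk (0% of all genes), 0 in the input (0.00641%) and 3 in the IP (0.0263%, which is 4 genes with *Dlgap3* as the other one), namely *1700003M07Rik*, *Hdac1* and *Col16a1*. The count in the IP was 0 without IP WT library 4, the WT library high in *Xist*, and 2 without any other single library. At an unadjusted p under 0.05 the counts were 6, 8 and 7 of 10, beside 4.94%, 5.57% and 2.63% of all genes. DESeq2 called 3 of the 10 in bulk (0.112% of all genes), 6 in the input (0.0513%) and 4 in the IP (0.0526%), and limma-voom 0 (0%), 0 (0.00641%) and 3 (0.0263%). A fit of all 6 genotype groups called 1 in bulk (0.0123%), 3 in the input (0.0306%) and 4 in the IP (0.0306%). These contrasts chose the genes, so nothing is read from the counts of the 10.

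**Figure D2:**
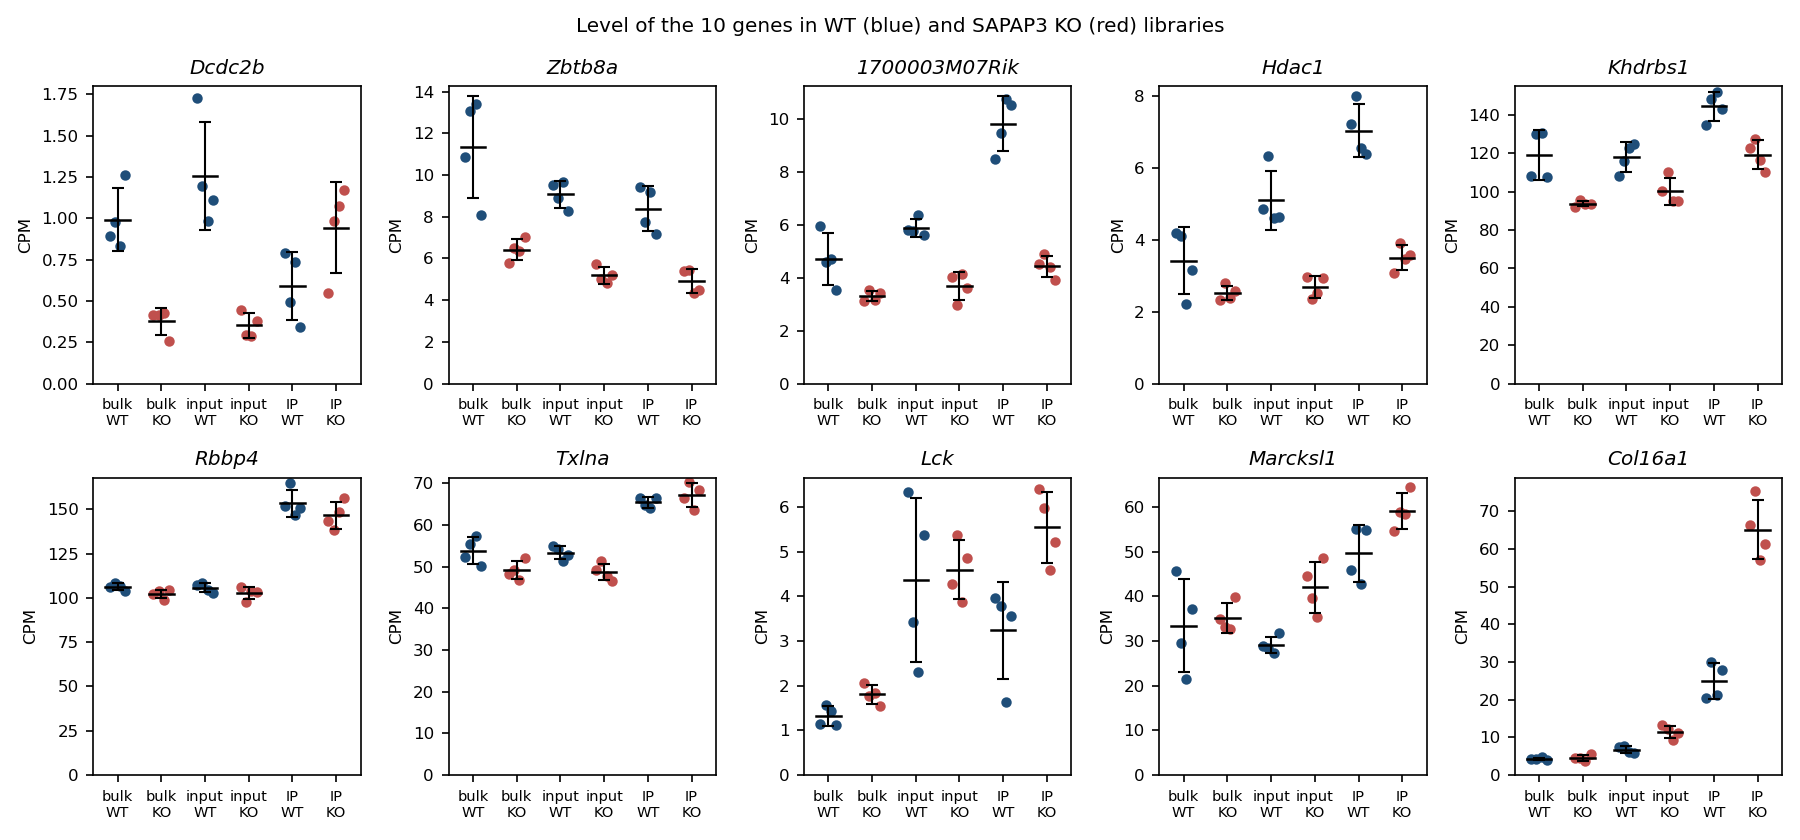
CPM of each gene in the 4 WT (blue) and 4 KO (red) libraries of bulk striatum, input and IP. Points are libraries, the bar is the mean and the whisker the SD; *Zbtb8a* libraries of the 2 genotypes do not overlap in any of the 3 preparations, and *Col16a1* separates in input and IP only.

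*Dcdc2b* showed the lowest KO over WT values of the 10 genes. Bulk WT libraries held 0.830, 0.895, 0.975 and 1.26 CPM, and bulk KO libraries 0.255, 0.415, 0.416 and 0.426 CPM. Every KO library lay below every WT library, at 38.2% of WT in the mean (log2(FC) −1.39 ± 0.224). In the input, WT libraries held 0.985, 1.11, 1.196 and 1.73 CPM and KO libraries 0.287, 0.293, 0.379 and 0.447 CPM, again without overlap, and the log2(FC) was −1.82 ± 0.266. The IP went the other way: WT libraries held 0.345, 0.496, 0.733 and 0.789 CPM and KO libraries 0.548, 0.981, 1.07 and 1.17 CPM, with a log2(FC) of 0.67 ± 0.322 and overlapping groups. The gene had only 9 to 14 reads in each KO input library and 15 to 44 in each IP library, so counting error is a large part of its spread. *Tmem234*, whose exons it overlaps on the opposite strand, had a log2(FC) of −0.20 in bulk, −0.26 in the input and −0.16 in the IP; its part in the *Dcdc2b* values was not tested.

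*Zbtb8a* was lower in the KO by a like amount in all 3 preparations. Bulk WT libraries stood at 8.09, 10.9, 13.1 and 13.4 CPM and bulk KO libraries at 5.81, 6.35, 6.52 and 7.02 CPM. The WT library at 8.09 CPM was the closest to the KO libraries, and the groups did not overlap. Input WT libraries held 8.27, 8.88, 9.52 and 9.67 CPM and input KO libraries 4.82, 5.02, 5.20 and 5.75 CPM. IP WT libraries held 7.20, 7.73, 9.17 and 9.42 CPM and IP KO libraries 4.34, 4.502, 5.38 and 5.42 CPM. The log2(FC) was −0.82 ± 0.154 in bulk, −0.81 ± 0.0984 in the input and −0.77 ± 0.129 in the IP, or 56.6%, 57.1% and 58.5% of WT. Its neighbours of like name, *Zbtb8b* (0.07, 0.13 and −0.06) and *Zbtb8os* (0.33, 0.16 and −0.02), did not share these values, although both lie within 0.1 Mb of it.

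*1700003M07Rik*, the long non-coding RNA, fell furthest in the IP. IP WT libraries held 8.50, 9.47, 10.5 and 10.8 CPM, and IP KO libraries 3.92, 4.396, 4.52 and 4.88 CPM. The lowest WT library was thus well above the highest KO library, with a log2(FC) of −1.15 ± 0.11. Input WT libraries held 5.61, 5.77, 5.80 and 6.38 CPM against 2.96, 3.61, 4.02 and 4.13 CPM in the KO (log2(FC) −0.68 ± 0.125). Bulk WT libraries held 3.55, 4.61, 4.71 and 5.94 CPM against 3.13, 3.15, 3.42 and 3.53 CPM in the KO (log2(FC) −0.51 ± 0.15). The bulk groups did not overlap only by the margin between 3.53 and 3.55 CPM.

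*Hdac1* was lower in the KO in input and IP, and overlapped in bulk. IP WT libraries held 6.37, 6.54, 7.21 and 7.98 CPM and IP KO libraries 3.08, 3.46, 3.57 and 3.90 CPM (log2(FC) −1.01 ± 0.12, 49.7% of WT). Input WT libraries held 4.59, 4.62, 4.84 and 6.32 CPM and input KO libraries 2.35, 2.52, 2.93 and 2.97 CPM (log2(FC) −0.92 ± 0.146). Bulk WT libraries spread from 2.22 to 4.19 CPM around KO libraries of 2.33 to 2.78 CPM (log2(FC) −0.45 ± 0.194). With 72 to 93 reads per KO input library and a near-identical copy elsewhere, these levels describe the reads assigned to *Hdac1*. Its closest paralogue *Hdac2* had log2(FC) values of −0.08 in bulk, 0.01 in the input and −0.07 in the IP.

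*Khdrbs1*, an abundant transcript, showed a small and steady difference. Bulk WT libraries held 107, 108, 130.0 and 130.3 CPM and bulk KO libraries 91.9, 93.5, 93.7 and 95.4 CPM, without overlap. IP WT libraries held 134, 143, 148 and 152 CPM and IP KO libraries 110, 117, 123 and 127 CPM, also without overlap. In the input the KO library at 110 CPM lay above the WT library at 108 CPM. The log2(FC) was −0.35 ± 0.0766 in bulk, −0.24 ± 0.0653 in the input and −0.28 ± 0.0657 in the IP. The related STAR gene *Khdrbs2* stood at −0.07, −0.13 and −0.11, and *Khdrbs3* at −0.07, 0.30 and 0.11.

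*Col16a1* was the gene with the largest excess in the KO. IP WT libraries held 20.6, 21.3, 27.8 and 30.1 CPM, and IP KO libraries 57.2, 61.4, 66.4 and 75.4 CPM. Every KO library was thus far above every WT library, and the log2(FC) was 1.38 ± 0.133 (2.61-fold). Input WT libraries held 5.80, 6.15, 7.49 and 7.58 CPM against 9.32, 11.2, 12.2 and 13.2 CPM in the KO (log2(FC) 0.76 ± 0.135). In bulk the difference was not seen, with 4.06 to 4.71 CPM in WT and 3.75 to 5.55 CPM in KO libraries (log2(FC) 0.10 ± 0.127, and −0.00 without bulk KO library 4). The summed astrocyte markers were 30360 to 39290 CPM in the KO IP and 24750 to 35060 CPM in the WT IP, a median log2(FC) of 0.15 over the 10 markers; their part in the *Col16a1* values was not tested. Of the other 8 fibril-associated collagen genes listed, 0 were called in any genotype comparison, where at most 0.0263% of all genes were called. *Col12a1* and *Col14a1* stood at 0.30 and −0.05 in the IP.

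*Marcksl1* differed in the input. Input WT libraries held 27.4, 28.4, 28.9 and 31.8 CPM and input KO libraries 35.4, 39.7, 44.5 and 48.5 CPM, without overlap (log2(FC) 0.52 ± 0.095). In the IP the WT libraries reached 55.2 CPM and the KO libraries began at 54.5 CPM (log2(FC) 0.25 ± 0.0938). Bulk WT libraries spread from 21.4 to 45.7 CPM around the KO libraries of 32.6 to 39.9 CPM, with a log2(FC) of 0.07 ± 0.197 that turned to −0.09 without bulk WT library 3. The paralogue *Marcks* had log2(FC) values of −0.14, −0.00 and 0.11.

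*Lck* was low and scattered. IP WT libraries held 1.63, 3.56, 3.79 and 3.97 CPM and IP KO libraries 4.58, 5.22, 5.97 and 6.40 CPM, without overlap (log2(FC) 0.76 ± 0.246). In the input the WT libraries alone ran from 2.30 to 6.33 CPM and held the whole KO range of 3.87 to 5.37 CPM (log2(FC) 0.08 ± 0.279), and the sign turned to −0.14 without input WT library 3. Bulk WT libraries held 1.11 to 1.57 CPM and bulk KO libraries 1.55 to 2.06 CPM (log2(FC) 0.46 ± 0.163). The 9 T cell markers in the table summed to 22.3 to 32.5 CPM in the WT IP and 18.4 to 31.0 CPM in the KO IP, and none was called in a genotype comparison. Of 6 Src-family genes tested in the IP, 0 were called, and *Fyn* had a log2(FC) of 0.01. At most 0.0263% of all genes were called in a genotype comparison, so 0 calls here and among the T cell markers say little.

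*Rbbp4* and *Txlna* were alike in the 2 genotypes. *Rbbp4* ranged over 104 to 108 CPM in bulk WT and 99.1 to 105 CPM in bulk KO, over 103 to 109 and 97.8 to 106 CPM in the input, and over 147 to 165 and 138 to 157 CPM in the IP. All 3 pairs of groups overlapped, with log2(FC) values of −0.06 ± 0.0425, −0.05 ± 0.0467 and −0.07 ± 0.0663. *Txlna* held 51.3 to 54.9 CPM in the WT input and 46.6 to 51.3 CPM in the KO input, where the groups just failed to overlap (log2(FC) −0.13 ± 0.0536). Its values in bulk (−0.13 ± 0.0595) and IP (0.04 ± 0.0553) came from overlapping groups. Of 27 genes of the HDAC1 and RBBP4 complexes, all tested, only *Hdac1* in the IP was called in a genotype comparison. It was chosen with its value known, and 0%, 0.00641% and 0.0263% of all genes were called in bulk, input and IP. With so few calls over all genes, this does not set *Hdac1* apart from its partners. *Rbbp7*, the paralogue of *Rbbp4*, stood at −0.10, 0.01 and 0.01.

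Around the 10 genes lay 16 other genes tested in bulk and input between 2 and 3 Mb from *Dlgap3*, and 15 in the IP. KO and WT libraries did not overlap for 2 of them in bulk, 7 in the input and 3 in the IP. Over all genes tested the shares were 3.03%, 4% and 1.59%. By the sign of the log2(FC), 5 of the 10 genes were below WT in all 3 preparations, 3 above and 2 mixed. Of 110 other genes within 5 Mb tested in all 3, 29 were below, 12 above and 69 mixed. None of the others was called by edgeR in the fits of the compared groups alone. With all 6 genotype groups in 1 fit, 5 genes within 5 Mb were called in the input, 3 of them among the 10. The genes counted there include *Dlgap3* itself. Just before the group stood *Sync* at 2.05 Mb (0.35, 0.80 and 0.25), and just after it *Pef1* at 2.87 Mb (−0.06, 0.06 and 0.07). Named after their values were seen, *Tmem39b* at 2.44 Mb (−0.31, −0.60 and −0.81) and *Hcrtr1* at 2.89 Mb (0.13, 0.88 and 0.90) were as far from WT as several of the 10. Also named so, *Ccdc28b* at 2.38 Mb stood at −0.28, −0.43 and −0.21. *Fam167b* at 2.34 Mb, likewise, stood at 0.48 in bulk and 1.19 ± 0.275 in the input, higher there than each of the 10. It held only 0.70 CPM in WT and 1.59 CPM in KO input in the mean, and was not tested in the IP. Closer to *Dlgap3*, 0 of 4 genes within 1 Mb on this side had KO and WT libraries that did not overlap, in any preparation. Within 1 Mb on the other side, KO and WT libraries did not overlap for 3 of 18 genes in bulk, 4 in the input and 1 in the IP. The shares of all genes are again 3.03%, 4% and 1.59%.

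**Figure D3:**
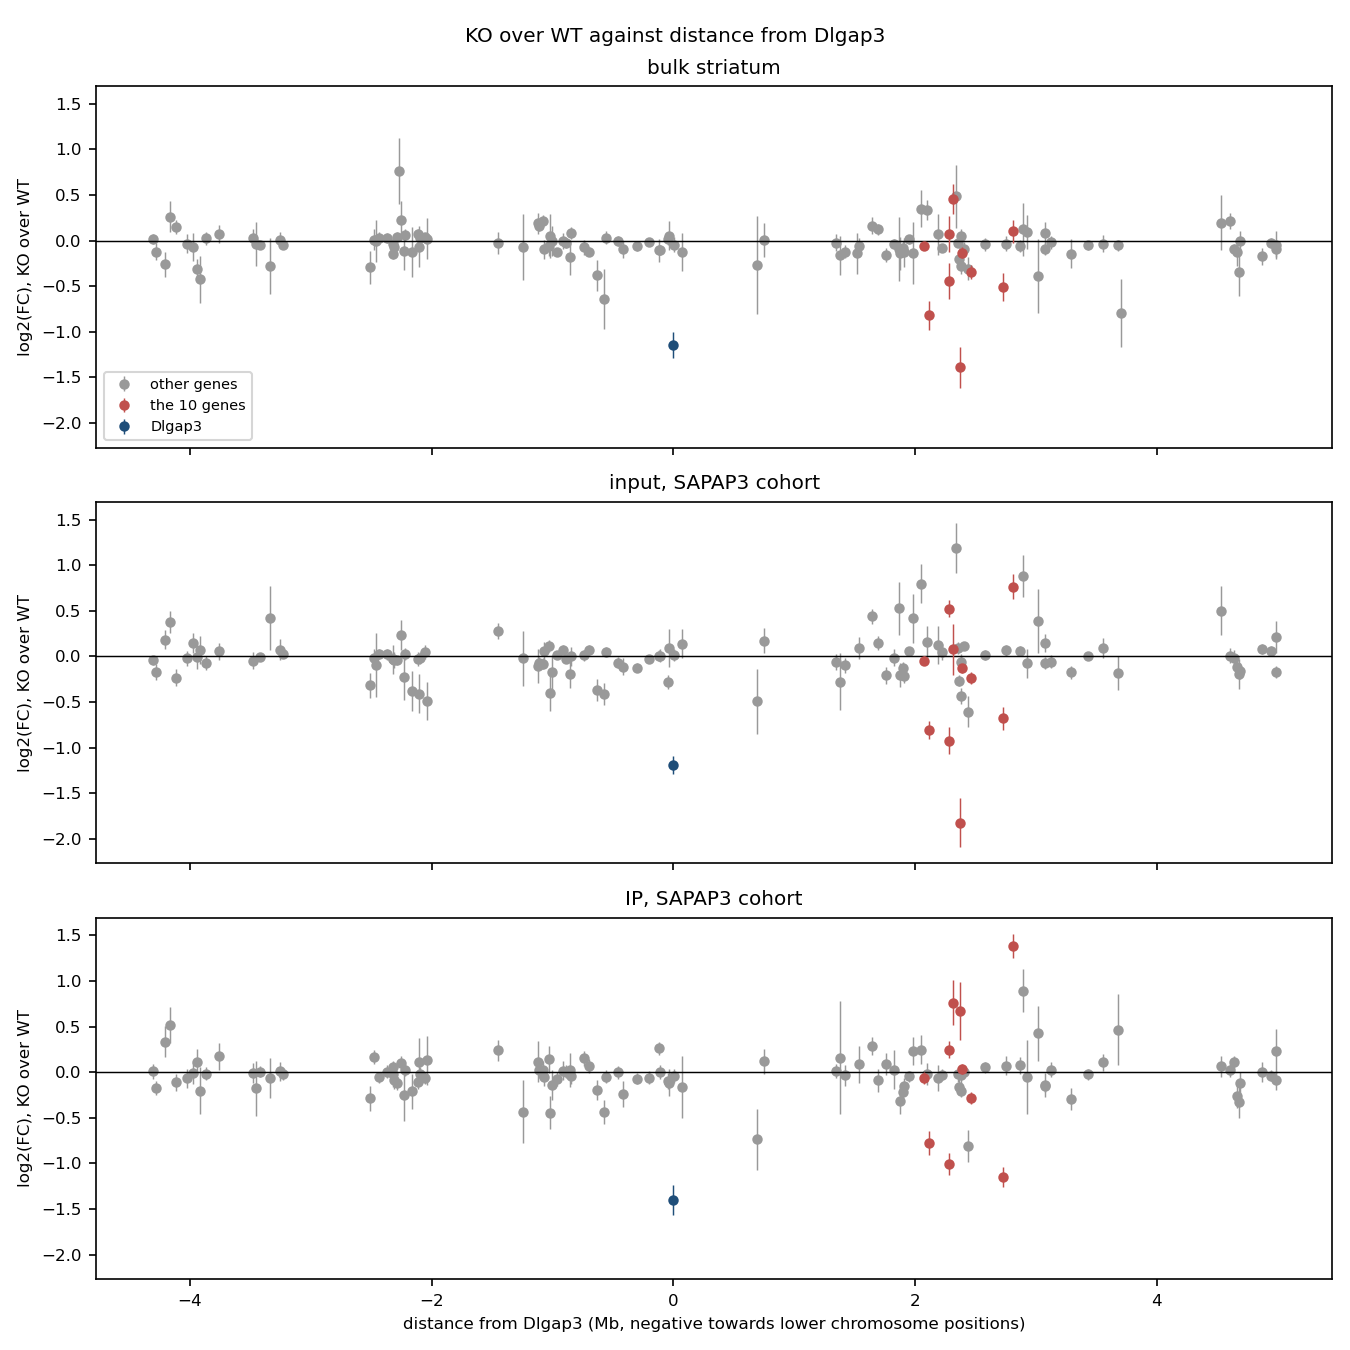
KO over WT log2(FC) with its SE against distance from *Dlgap3* in Mb, for genes within 5 Mb, in bulk, input and IP. The 10 genes (red) sit between 2.07 and 2.81 Mb; *Dlgap3* (blue) is at 0, and most other genes (grey) lie close to 0 on the log2 scale.

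The Control and neuron cohorts, whose libraries stand in no KO over WT value, show in which preparation each gene is carried, and these comparisons were tested. In the Control cohort, IP over input, *Col16a1*, *1700003M07Rik*, *Hdac1*, *Rbbp4* and *Khdrbs1* were higher in the IP, 5 of 10 (39.2% of all 15476 genes), and *Dcdc2b*, *Zbtb8a* and *Lck* lower, 3 of 10 (41.2%), so that 8 of 10 were called (80.4%). Past a log2(FC) of 1 in either direction stood 3 of 10 (26.9% of all genes). In the neuron cohort *Zbtb8a*, *Rbbp4* and *Khdrbs1* were higher, 3 of 10 (35.5% of all 16198 genes), and *Dcdc2b*, *Marcksl1*, *Col16a1*, *1700003M07Rik* and *Hdac1* lower, 5 of 10 (35.9%), again 8 of 10 in all (71.3%), with 0 of 10 past that limit (16.3%). The WT libraries of the SAPAP3 cohort also stand in the KO over WT values that chose the genes, so their IP over input values are a description and nothing is read from their counts. There 7 of 10 were higher (32.7% of all 15587 genes) and 1, *Dcdc2b*, lower (34.6%), 8 in all (67.3%), with 2 past the limit (23%). In the Control and neuron cohorts the shares of the 10 genes called were near those of all genes. The median log2(FC) of the 10 was 0.19 in the Control, −0.55 in the neuron and 0.34 in the SAPAP3 cohort, beside −0.02, −0.00 and −0.03 over all genes. Among the markers, 10 of 10 astrocyte markers were higher in the IP of the Control and of the SAPAP3 cohort, and 9 of 9 neuron markers in the neuron IP.

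**Figure D4:**
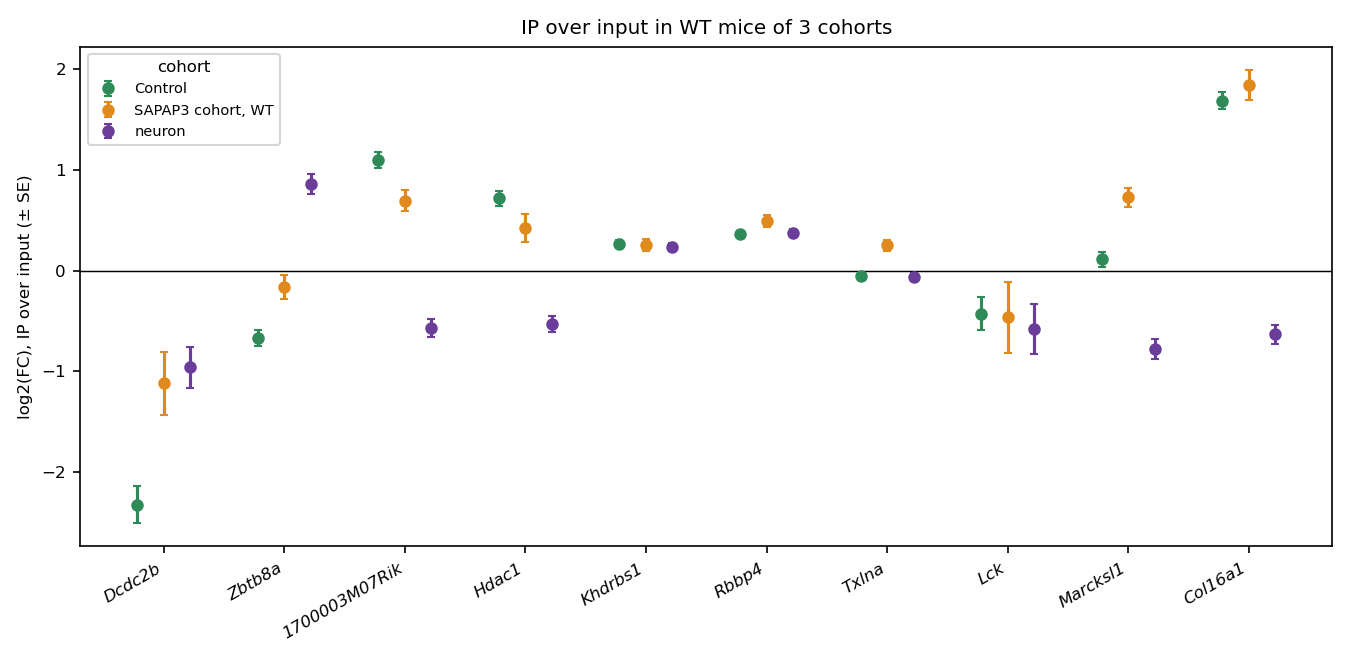
IP over input log2(FC) with its SE for the 10 genes in WT mice of the Control, SAPAP3 and neuron cohorts (4 IP and 4 input libraries each). *Col16a1*, *1700003M07Rik* and *Hdac1* lie above 0 in the Control and SAPAP3 cohorts and below 0 in the neuron cohort, and *Zbtb8a* is above 0 in the neuron cohort only.

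*Col16a1* had the highest IP over input value of the 10. Control IP libraries held 29.32, 29.33, 30.5 and 32.6 CPM against 8.02, 8.13, 9.20 and 10.6 CPM in their inputs, a log2(FC) of 1.69 ± 0.0849 (edgeR adjusted p = 6.6e-09). In the SAPAP3-cohort WT mice the log2(FC) was 1.84 ± 0.153. In the neuron cohort the IP held 4.90 to 6.67 CPM and the input 8.12 to 9.20 CPM, a log2(FC) of −0.63 ± 0.0939 (edgeR adjusted p = 0.00016). The IP was thus above its input in all Control and SAPAP3 libraries and below it in all neuron libraries. The neuron-cohort value minus the Control value was −2.32 ± 0.13 (interaction term, edgeR adjusted p = 5.9e-11). Over the groups, the KO IP was highest (65.1 ± 7.85 CPM), apart from Control IP (30.5 ± 1.56) and WT IP (24.9 ± 4.73), whose ranges overlapped, and bulk WT was lowest (4.29 ± 0.290 CPM, SD, n = 4).

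*1700003M07Rik* was likewise higher in the Control IP and lower in the neuron IP. It held 12.4, 13.3, 13.6 and 14.9 CPM in the Control IP and 5.53, 5.96, 6.15 and 6.42 CPM in the Control input (log2(FC) 1.10 ± 0.0766, edgeR adjusted p = 1.1e-07). The SAPAP3-cohort WT value was 0.69 ± 0.103. The neuron IP held 3.44 to 4.18 CPM against 5.34 to 5.93 CPM in its input (log2(FC) −0.57 ± 0.0877, edgeR adjusted p = 0.00021), and the difference between the cohorts was −1.67 ± 0.112 (edgeR adjusted p = 6.2e-10). The KO IP, at 4.43 ± 0.398 CPM, lay among the input, bulk and neuron IP groups in level, and its range overlapped that of bulk WT (4.70 ± 0.981) and that of the neuron IP (3.89 ± 0.342 CPM).

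*Hdac1* was enriched in the Control IP, at 18.1, 19.1, 19.3 and 19.8 CPM against 10.1, 10.7, 11.02 and 12.4 CPM in the input (log2(FC) 0.72 ± 0.0703, edgeR adjusted p = 2.3e-06). In the SAPAP3-cohort WT mice the log2(FC) was 0.42 ± 0.136. The neuron IP held 3.38 to 3.78 CPM and its input 4.61 to 5.17 CPM (log2(FC) −0.53 ± 0.0804, edgeR adjusted p = 0.00018), and the difference between the cohorts was −1.25 ± 0.0971 (edgeR adjusted p = 4.2e-09). The Control input itself, at 11.04 ± 0.993 CPM, stood apart from the neuron-cohort input (4.96 ± 0.262) and the WT input of the SAPAP3 cohort (5.09 ± 0.824 CPM), so the direct comparison of neuron IP with Control IP (log2(FC) −2.46 ± 0.0629) also holds the difference between the inputs of the cohorts.

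*Zbtb8a* was the gene that turned the other way. Control IP libraries held 7.67, 8.22, 8.36 and 8.89 CPM, below all Control inputs at 11.4, 12.04, 12.8 and 13.7 CPM (log2(FC) −0.67 ± 0.0771, edgeR adjusted p = 9.1e-06). Neuron IP libraries held 13.2, 14.4, 15.2 and 16.6 CPM, above all their inputs at 7.24, 7.27, 7.90 and 9.27 CPM (log2(FC) 0.85 ± 0.0985, edgeR adjusted p = 2.7e-05). The difference of the enrichments was 1.52 ± 0.127 (edgeR adjusted p = 1e-08). In SAPAP3-cohort WT mice IP and input overlapped (log2(FC) −0.16 ± 0.119). In the order of levels the neuron IP was first (14.8 ± 1.45 CPM) and the 3 KO groups were last, with bulk KO (6.42 ± 0.5003 CPM) apart from the neuron-cohort input (7.92 ± 0.9499 CPM) above it.

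*Dcdc2b* was lower in the IP than in the input of the Control and neuron cohorts. In the Control cohort it held 0.437, 0.449, 0.6003 and 0.642 CPM in the IP against 2.19, 2.36, 2.57 and 3.05 CPM in the input, from 18 to 28 reads per IP library (log2(FC) −2.32 ± 0.188, edgeR adjusted p = 4.1e-07). The neuron value was −0.96 ± 0.202 (edgeR adjusted p = 0.0016), and the SAPAP3-cohort WT mice had −1.12 ± 0.309. In the KO mice of that cohort the IP, at 0.548 to 1.17 CPM, lay above the input, at 0.287 to 0.447 CPM. The neuron cohort was less depleted than the Control cohort by 1.36 ± 0.284 (edgeR adjusted p = 0.0004). The KO input (0.351 ± 0.0763 CPM) and bulk KO (0.378 ± 0.0821 CPM) were the lowest of the 10 groups and overlapped in range.

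*Marcksl1* was lower in the neuron IP (27.9, 28.3, 32.5 and 37.0 CPM) than in its input (47.0, 49.7, 54.4 and 57.2 CPM), with a log2(FC) of −0.78 ± 0.0955 (edgeR adjusted p = 4.3e-05). Control IP (35.2 to 46.1 CPM) and input (34.3 to 36.5 CPM) overlapped, with a log2(FC) of 0.11 ± 0.0729 (edgeR adjusted p = 0.18, and 0.0063 without Control IP library 2). In the SAPAP3-cohort WT mice the log2(FC) was 0.72 ± 0.0917. The neuron minus Control difference was −0.89 ± 0.128 (edgeR adjusted p = 8.7e-06). Oligodendrocyte markers moved with it in the neuron and SAPAP3 cohorts, and so did most astrocyte markers. Of 10 astrocyte markers, 7 were lower and 1 higher in the neuron IP (median log2(FC) −0.63). All 10 were higher in the SAPAP3-cohort WT IP (2.30) and in the Control IP (3.02). The oligodendrocyte sum was 1430 to 2222 CPM in the neuron IP against 4616 to 6208 CPM in its input. In the SAPAP3-cohort WT mice it was 7869 to 11540 against 5449 to 6433 CPM. In the Control cohort it was 3614 to 6118 CPM in the IP and 5110 to 6029 CPM in the input, with overlap. Between KO and WT input, where *Marcksl1* was higher, the median log2(FC) of the oligodendrocyte markers was −0.09. The part of either marker set was not tested.

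*Rbbp4* and *Khdrbs1* were a little higher in the Control and neuron IPs. *Rbbp4* had log2(FC) values of 0.36 ± 0.0334 in the Control, 0.37 ± 0.042 in the neuron and 0.49 ± 0.0568 in the SAPAP3 cohort (edgeR adjusted p = 1.3e-06 and 2.5e-05 in the first 2). *Khdrbs1* had 0.27 ± 0.0413, 0.23 ± 0.0403 and 0.25 ± 0.0585 (edgeR adjusted p = 0.0001 and 0.00046 in the first 2). For both genes every IP library lay above every input library of its cohort. The difference between neuron and Control enrichment was 0.01 ± 0.0498 for *Rbbp4* and −0.04 ± 0.0555 for *Khdrbs1* (edgeR adjusted p = 0.93 and 0.59). With the genes limited to FPKM above 5 in at least 4 libraries, the neuron value of *Khdrbs1* was 0.05 (edgeR adjusted p = 0.22). The differences between the cohorts were then −0.13 for *Rbbp4* and −0.17 for *Khdrbs1* (edgeR adjusted p = 0.027 and 0.0092). That limit also renewed the library scaling, and *Rbbp4*, *Khdrbs1* and *Txlna* (from −0.01 to −0.15) moved down together. No cohort difference of a single gene is read from these calls. *Rbbp4* levels ranged only from 102 to 155 CPM in the mean over all 10 groups.

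*Txlna* did not pass the test in the Control (log2(FC) −0.05 ± 0.0347, edgeR adjusted p = 0.2) or neuron cohort (−0.06 ± 0.0347, edgeR adjusted p = 0.14), and stood at 0.25 ± 0.0535 in SAPAP3-cohort WT mice. With the limit of FPKM above 5 it was called lower, at −0.11 in the Control and −0.24 in the neuron cohort (edgeR adjusted p = 0.016 and 8.7e-05). The difference between the cohorts was then −0.15 (edgeR adjusted p = 0.0049). The library scaling was fitted anew on the genes kept, and *Khdrbs1* went down likewise in the neuron cohort, from 0.23 to 0.05. These calls depend on that scaling, so no depletion of *Txlna* is read from them. *Lck* was lower in the Control IP (2.08, 2.14, 2.27 and 3.32 CPM) than in its input (2.72, 3.14, 3.30 and 3.34 CPM), with a log2(FC) of −0.43 ± 0.165 (edgeR adjusted p = 0.033). That call was lost without any of 6 of the 8 libraries, among them Control IP libraries 1, 2 and 3 (adjusted p up to 0.093). In the neuron cohort *Lck* did not pass (log2(FC) −0.58 ± 0.249, edgeR adjusted p = 0.06), but passed with the title number as a block (adjusted p = 0.00041), and in the SAPAP3-cohort WT mice the log2(FC) was −0.47 ± 0.355. T cell markers were lower in the IPs, 6 of 6 tested in the Control, 8 of 9 in the neuron and 9 of 9 in the SAPAP3 cohort, with *Cd3e* at 0 in every Control IP library. In the neuron cohort 1 marker was called higher, and the summed level of the 9 was 54.4 to 70.1 CPM in the IP against 30.6 to 46.7 CPM in the input, while in the Control it was 29.2 to 36.6 against 61.7 to 66.6 CPM. The part of these markers in the *Lck* values was not tested.

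The paralogues and partners of these genes did not all follow them in the IPs. Of the 27 genes of the HDAC1 and RBBP4 complexes, 13 were higher and 9 lower in the Control IP (median log2(FC) 0.15), and 14 higher and 5 lower in the neuron IP (0.15). *Hdac2*, which shares complexes with *Hdac1*, had the opposite signs of it, at −0.17 ± 0.0317 in the Control and 0.61 ± 0.0522 in the neuron cohort (edgeR adjusted p = 0.00052 and 3.7e-06). *Rbbp7*, the paralogue of *Rbbp4*, had 0.02 ± 0.0324 in the Control and 0.46 ± 0.0438 in the neuron cohort (edgeR adjusted p = 0.65 and 7.4e-06). Of the 9 fibril-associated collagen genes, *Col16a1* included, 4 were higher and 3 lower in the Control IP, and 0 were higher and 6 lower in the neuron IP. *Col9a3*, a chain of type IX collagen, ran the same way as *Col16a1*, at 0.98 ± 0.0541 and −0.99 ± 0.106 (edgeR adjusted p = 1.5e-08 and 1.6e-05). Of 7 Src-family genes tested, *Lck* included, 3 were higher and 4 lower in the Control IP, and 0 higher and 4 lower in the neuron IP. Of 6 genes with doublecortin domains, 1 was higher and 5 lower in the Control IP, and 3 were higher and 3 lower in the neuron IP.

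Set directly against the Control IP, the neuron IP was lower for *Hdac1*, *Col16a1*, *1700003M07Rik*, *Marcksl1*, *Rbbp4*, *Khdrbs1* and *Txlna*, 7 of 10 (39.4% of all 15468 genes), and higher for *Zbtb8a* and *Dcdc2b*, 2 of 10 (40.3%). That made 9 of 10 called (79.6%), with 3 past a log2(FC) of 1 in size (27.8%). *Col16a1* was 5.45-fold lower (log2(FC) −2.45 ± 0.0866) and *1700003M07Rik* 3.57-fold lower (−1.84 ± 0.0879), and *Zbtb8a* was 1.74-fold higher (0.80 ± 0.08). The difference of enrichments, which sets each IP against its own input, was called for 6 of 10 (70.1% of 16371 genes), with 5 of them past 1 in size (27.4%). Cohort, sex and cell type cannot be told apart in these comparisons.

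Over the 40 libraries, the genes outside 20 Mb of *Dlgap3* whose log2 CPM ran most nearly in step with the mean of the 10 were *Naprt1* (Spearman rho 0.94), *Fam181a* (0.94), *Cercam* (0.94), *Grtp1* (0.92) and *Wnt7a* (0.92). The libraries share cohorts and preparations, so this is a description of groups more than of single libraries. The 10 genes share no single pattern, as *Col16a1* and *Zbtb8a* ran opposite ways in the IPs. A match to their mean is thus not a match to each gene.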

How the data were processed

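Reads were aligned to mm10 with STAR by the authors, whose processing notes also name HTSeq, and the deposited table holds raw read counts per gene symbol, 1 column for each of the 40 libraries, not normalized. The annotation, the strand setting and the handling of reads with several alignments are not given in the sources used here, and the library kit and sequencer in the labels are not those of the published methods. The symbols (24060, of which 2 are listed more than once) were matched to RefSeq lengths on GRCm38.p6 for 99.2%.

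From the counts, CPM were computed with TMM library sizes over all 40 libraries, and FPKM with total counts and merged exon length. Fold changes come from fits of the compared groups alone, and the ratio of printed CPM differs from them by up to 0.0762 (log2) for IP over input. Tests used R 4.3.3 and edgeR 4.0.16 (filterByExpr, TMM, glmQLFit, glmQLFTest), with Benjamini–Hochberg adjustment over all genes tested and a threshold of 0.05; the SE is the log2(FC) divided by the square root of F. The main fits take IP and input libraries as independent and do not use their pairing. Their p-values thus measure the spread between libraries of these mice. IP over input in the SAPAP3 cohort carries no p for the 10 genes, since its WT libraries stand in the KO over WT values that chose them. Alternatives were limma-voom (limma 3.58.1, the study's test), DESeq2 1.42.0 and its size factors, no filter on low counts, FPKM above 5 in at least 4 libraries, all 6 genotype groups in 1 fit, *Xist* as a covariate, the libraries with a shared animal number left out, each library left out in turn, and the replicate number as a block.

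IP and input were paired by animal in the Control and SAPAP3 cohorts and by title number in the neuron cohort, where the labels give different animal numbers. Deviations of same-numbered libraries correlated at 0.25 to 0.58, 0.53 to 0.69 and 0.48 to 0.79, over genes of at least 5 CPM.

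Copies were sought with minimap2 2.31, at 95% identity over at least 50% of a transcript. On simulated counts for bulk striatum 78% of genes changed by a log2(FC) of 1 and 14% of those changed by 0.5 were recovered, and 94% and 76% for Control IP over input. Those counts were drawn independently for each gene, with 200 genes changed. In the real bulk fit 0 genes were called, and *Dlgap3* itself, at −1.14 ± 0.143, was not. The shares therefore do not say how often such a change would be called in the real bulk libraries. The 10 genes, the gene lists and the tests were chosen with earlier results of these data known. The text names the 10 genes, *Dlgap3*, close paralogues and partners, marker lists by their counts and the 5 genes outside 20 Mb nearest in pattern. It also names some genes within 5 Mb that the main fits did not call. Of those, *Tmem39b*, *Hcrtr1*, *Ccdc28b* and *Fam167b* were named after their values were seen. Python 3.11.15, pandas 2.3.3 and matplotlib 3.10.9 were also used. Both the SD and the SE include the spread between libraries.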

Additional observations from a re-analysis of the deposited data

Results flagged for a closer look

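In 100 groups of 4 libraries checked, 4 held a library far from the other 3, and chance alone marks about 1 in 20. Bulk KO library 4 held 0.255 CPM of *Dcdc2b*, where the other 3 held 0.415 to 0.426. Input WT library 2 of the SAPAP3 cohort held 6.32 CPM of *Hdac1*, where the other 3 held 4.59 to 4.84. Neuron-cohort input library 3 held 94.9 CPM of *Rbbp4*, where the others held 104 to 105. Control IP library 4 held 3.32 CPM of *Lck*, where the others held 2.08 to 2.27.

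The IP over input value differed between the neuron and Control cohorts by the interaction term for 6 of the 10 genes. The neuron value was above the Control value for *Zbtb8a* (by 1.52 on the log2 scale) and *Dcdc2b* (by 1.36). It was below for *Col16a1* (−2.32), *1700003M07Rik* (−1.67), *Hdac1* (−1.25) and *Marcksl1* (−0.89). Each kept its sign and its call in every alternative that tested it, leaving out single libraries included, and the minimum of FPKM above 5 removed *Dcdc2b*, *1700003M07Rik* and *Col16a1*.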

How the results depend on the processing

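Counts of the 10 genes called KO over WT depended on the tool. In bulk the 0 calls became 3 with DESeq2 and 1 with all 6 genotype groups in 1 fit, and in the input 6 and 3. In the IP the 3 calls became 4 with DESeq2, 2 with *Xist* as a covariate, 1 with FPKM above 5, and 0 to 2 with single libraries left out. Within 5 Mb of *Dlgap3*, with *Dlgap3* itself among the genes counted, bulk had 0 genes called. It had 4 with DESeq2, 2 with the 6 groups and 0 to 1 with single libraries left out. The input went from 1, which was *Dlgap3*, to 8, 5 and 0 to 1 in the same order. The IP went from 4, *Dlgap3* among them, to 2 with FPKM above 5 and 0 to 3 with single libraries left out. The cause was not tested. The minimum of FPKM above 5 removed low genes, and the library scaling was fitted anew on those kept. The calls for IP over input then went from 8 to 5 in the Control, where *Txlna* gained one (−0.1053). They went from 8 to 4 in the neuron cohort, where *Txlna* gained one (−0.239) and *Khdrbs1* lost one (0.0544). In the SAPAP3 WT cohort they went from 8 to 4.

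With the replicate number as a block, pairing IP and input, 8 of the 10 genes were called in the Control and 9 in both other cohorts, where *Lck* joined (adjusted p 0.00041 in the neuron cohort, edgeR), and 6 in the interaction. The block changed no other call of the 10 genes.

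The uncalled values near 0 changed sign. For the interaction, *Rbbp4* (0.0055) was −0.0289 with DESeq2, −0.0288 with its size factors, −0.1293 with FPKM above 5 (adjusted p 0.027, edgeR), and −0.0223 to 0.0259 with single libraries left out; *Lck* ran from −0.3404 to 0.0121 and *Txlna* from −0.0326 to 0.008. With FPKM above 5, *Txlna* was −0.1471 and *Khdrbs1* −0.1702 (adjusted p 0.0049 and 0.0092, edgeR). Under that limit, which also renewed the library scaling, *Rbbp4*, *Txlna* and *Khdrbs1* moved down together. For neuron IP over Control IP, *Lck* ran from −0.3641 to 0.0026. Depth limits *Dcdc2b* and *Lck* most, which hold the fewest reads.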
